A study of Mus musculus with 18 samples.

Results

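The 5 genes Cdkn1a, Cdkn1b, Cdkn2a, Cdkn2b and Cdkn2c, which encode inhibitors of cyclin-dependent kinases, were followed through 18 ChIP-seq libraries of E14 cells, a mouse embryonic stem cell line. They were chosen by name out of 21631 protein-coding genes on the autosomes and chromosome X, and all 5 were found. Each gene was read in 3 intervals placed on GRCm38 RefSeq coordinates: its first listed start with 1 kb on either side, its body from end to end, and the 10 kb on each side of the body. On GRCm38 the genes lie at chr17:29090979-29100722 (Cdkn1a, plus strand), chr6:134920401-134925525 (Cdkn1b, plus), chr4:89274473-89294619 (Cdkn2a, minus), chr4:89306289-89311032 (Cdkn2b, minus) and chr4:109660876-109666756 (Cdkn2c, minus). All cells shared 2i/LIF medium, in which LIF and the kinase inhibitors of 2i (against GSK3 and MEK) hold the cells in an undifferentiated state, with arginine and lysine in light or isotope-labelled form. The 10 untreated libraries, 2 for each of H3K27me1, H3K27me2, H3K27me3, H3K36me2 and H3K36me3, had no spike-in. The other 8 libraries were quantitative: cells received EPZ6438, an inhibitor of the H3K27 methyltransferase EZH2, at 10 µM for 7 days, or the same volume of the solvent DMSO, and Drosophila S2 chromatin made up 0.05% of the chromatin before H3K27me3 or H3K36me2 was precipitated. Each of the 9 groups held 2 libraries of 1 cell line, and nothing in the labels says that the replicates came from separate cultures, so p-values measure the spread between libraries, which may be technical. A level is given below either as scaled reads per 1 kb window, on the deposited spike-in scale, or as a multiple of the mean of all windows of the same library, written as times the library mean.

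Cells advance from G1 into S phase when cyclin-dependent kinases phosphorylate the retinoblastoma protein and release E2F factors. Inhibitors of the CIP/KIP class, such as p21 from Cdkn1a and p27 from Cdkn1b, bind complexes of cyclins with CDK2 and other kinases, whereas the INK4 class binds CDK4 and CDK6. Of the INK4 genes, Cdkn2b encodes p15 and Cdkn2c encodes p18. Cdkn2a has a start for p19ARF, which restrains MDM2 and so stabilises p53, and a second start inside the gene for p16INK4A. In differentiated cells the Cdkn2a and Cdkn2b locus is a known target of Polycomb repressive complex 2, whose EZH2 subunit places methyl groups on H3K27. H3K36me3 is laid down across transcribed bodies by SETD2, and H3K36me2 spreads more widely around genes and between them.

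Cdkn1a and Cdkn2a each have more than one listed start, and the sequences before their starts differ sharply in CpG content. The 250 bases before each start are shown for these genes because the marks around the starts are compared below. They come from RefSeq on GRCm38.p6, are written 5′ to 3′ on the gene's own strand, and CpG dinucleotides are in capitals. The ARF window of Cdkn2a lies at chr4:89294620-89294869 and the INK4A window at chr4:89282193-89282442, both on the minus strand. The windows of Cdkn1a lie on the plus strand at chr17:29090729-29090978 for the first start and at chr17:29093519-29093768 for the second.
Cdkn2a first start (ARF): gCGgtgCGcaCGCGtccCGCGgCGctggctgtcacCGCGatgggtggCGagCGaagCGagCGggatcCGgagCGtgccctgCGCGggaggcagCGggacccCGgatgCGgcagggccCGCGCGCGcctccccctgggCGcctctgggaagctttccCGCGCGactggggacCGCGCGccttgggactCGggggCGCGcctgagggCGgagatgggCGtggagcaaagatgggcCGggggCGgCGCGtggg
Cdkn2a second start (INK4A): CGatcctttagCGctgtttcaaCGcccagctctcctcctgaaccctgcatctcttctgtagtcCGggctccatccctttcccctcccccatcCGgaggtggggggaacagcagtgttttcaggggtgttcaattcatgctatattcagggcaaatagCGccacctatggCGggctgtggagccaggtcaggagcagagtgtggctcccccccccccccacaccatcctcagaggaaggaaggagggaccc
Cdkn1a first start: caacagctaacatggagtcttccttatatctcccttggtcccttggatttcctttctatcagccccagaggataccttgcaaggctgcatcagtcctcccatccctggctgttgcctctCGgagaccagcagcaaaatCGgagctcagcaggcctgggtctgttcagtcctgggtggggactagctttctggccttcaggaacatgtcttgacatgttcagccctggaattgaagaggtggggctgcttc
Cdkn1a second start: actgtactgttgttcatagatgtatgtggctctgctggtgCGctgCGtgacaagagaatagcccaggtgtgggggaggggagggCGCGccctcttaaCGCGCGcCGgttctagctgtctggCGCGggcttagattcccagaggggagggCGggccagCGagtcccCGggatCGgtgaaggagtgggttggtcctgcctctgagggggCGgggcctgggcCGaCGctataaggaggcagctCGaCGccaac

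The ARF window held 40 CpG dinucleotides, more than 98.7% of 32851 listed mouse promoters had, whereas the INK4A window held 7, near the median of 6. Cdkn1a showed the opposite order, with 2 before the first start and 19 before the second, 2.79 kb further on. Cdkn1b, with 1 listed start, had 28. Cdkn2c had 29 before its first start and 6 before its second, and Cdkn2b had 12. Each window was also searched on both strands for 4 short motifs. The E2F letters TTTCCCGC occurred once, in the ARF window from 99 to 92 bases before the start, and are found in 0.895% of listed promoters of this length. The other E2F form, TTTGGCGC, occurred in none of the windows of the 5 genes and occurs in 0.417% of promoters. The Sp1 letters GGGCGG, present in 32.7% of promoters, occurred 3 times before the first start of Cdkn2c, 2 times before the second start of Cdkn1a and before the ARF start, and once before Cdkn1b. Half-sites of the p53 consensus occurred in the window of the first start of Cdkn1a alone among these, as GGACTAGCTT from 73 to 64 and GAACATGTCT from 51 to 42 bases before the start, against 7.13% of promoters with at least 1. Cdkn1a is a known direct target of p53. A match is a description of letters, and these data hold no measurement of binding by any factor.

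Window reads, counted in windows that do not overlap, ranged from 22935044 to 67464843 in the untreated libraries, from 21570141 to 27899913 in H3K27me3 after DMSO and from 50538962 to 111758166 in the quantitative H3K36me2 libraries. The H3K27me3 libraries after the inhibitor held 991909 and 1777232, and single intervals rest there on few reads. The state of the cells was checked through H3K36me3 over bodies. The 8 pluripotency genes examined ranged from 4.31 to 8.07 times the library mean, with 8 of 8 above it. The 8 genes of other lineages ranged from 0.181 to 2.31 times, with 4 of 8 above it. Their median of 1.10 lay below the median of 1.76 over all genes, though Cdx2 (2.31) and Pax6 (1.82) lay above that.

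H3K27me3 around the first start of every inhibitor gene lay below the library mean in untreated cells, Cdkn2a included. The median over the starts of all genes, 0.477 times, lay below it too. At the ARF start of Cdkn2a it was 0.314 and 0.539 times the library mean in replicates 1 and 2, and 48.0% of genes had a lower mean. At the INK4A start, 12.4 kb downstream, it was 0.922 and 0.773 times, so that both untreated libraries lay below their mean there as well. Both values at the INK4A start lay above both at the ARF start. At Cdkn2b, whose end lies 11.7 kb upstream of the ARF start, it was 0.235 and 0.234 times. Cdkn1a had 0.137 and 0.234 times, Cdkn1b 0.490 and 0.117 times, and Cdkn2c 0.392 and 0.726 times. The mean of Cdkn2c was above that of 52.5% of genes. The order of means ran from Cdkn2c through Cdkn2a, Cdkn1b and Cdkn2b to Cdkn1a, and every pair of neighbours in it had overlapping libraries. Levels at the first starts rest on 2 to 13 window reads per library. No first start of the 5 genes lay in one of the authors' H3K27me3 peaks, which hold 30.6% of the 17274 starts of protein-coding genes with a listed start.

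Other parts of Cdkn2a and Cdkn2c did carry the mark. The bodies of these 2 of the 5 genes touched an H3K27me3 peak of the authors, and that of Cdkn2b did not. Of all 21631 protein-coding bodies 44.4% touched such a peak, so this is not particular to the inhibitor genes. An H3K27me3 peak of the authors at chr4:89270501-89279000, 8.5 kb long, covered the last 4.53 kb of Cdkn2a and ran past its end, with its near edge 15.6 kb from the ARF start. H3K27me3 across it was 3.09 and 3.33 times the library mean in untreated cells, and 4.44 and 3.62 times in the DMSO libraries, which were not used for these peaks, per the deposited description. The window centred 18.12 kb from the ARF start was the highest, at 6.20 and 5.16 times. In the same window H3K36me3, the mark of transcribed bodies, was 7.33 and 8.15 times its library mean, and H3K36me2 was 1.91 and 2.14 times. Both kinds of mark were thus high over the same kilobase of Cdkn2a, while H3K27me2 there was 0.645 and 0.859 times and H3K27me1 0.489 and 0.181 times. Whether they sit on the same alleles, or in the same cells, was not tested.

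At Cdkn2c the peak lay at chr4:109656001-109662000, 6 kb long, over the last 1.12 kb of the gene and the sequence beyond it, where the lncRNA gene 9630013D21Rik is annotated. Untreated H3K27me3 was 3.21 and 3.75 times the library mean across it. Its highest window, centred 9.26 kb from the first start and so outside Cdkn2c, held 7.84 and 6.84 times. A smaller rise lay inside the gene around its second start, 1.38 kb from the first, where replicate 1 had 1.12 and replicate 2 had 3.02 times. Unlike the Cdkn2a peak, the Cdkn2c peak had H3K36me3 near or below the library mean, at 1.05 and 0.663 times. The profile of H3K27me3 along the INK4 genes shows these positions, with the untreated mean of Cdkn2b below 1 in every window, some of which held almost no reads in any library.

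**Figure D1:**
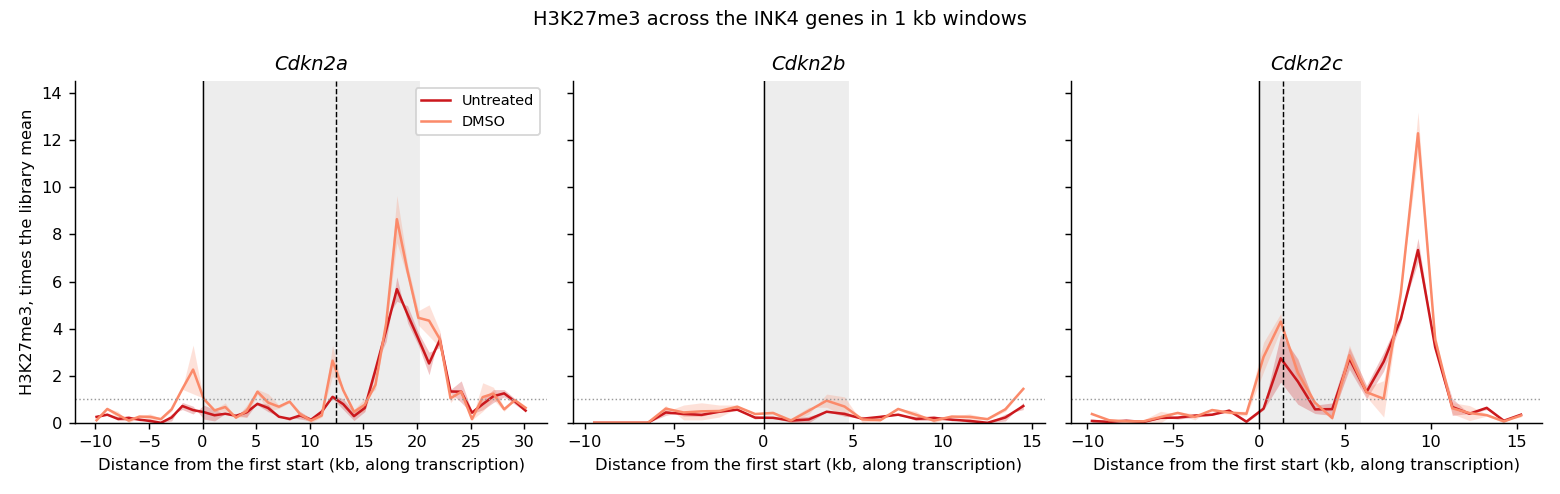
H3K27me3 in 1 kb windows (y axis, times the library mean) against distance from the first start along transcription (x axis, kb) at Cdkn2a, Cdkn2b and Cdkn2c; lines are means of 2 libraries, shading spans the 2 libraries, grey marks the gene body and the dashed line the second start. In untreated cells the signal is highest toward the 3′ end of Cdkn2a, at 5.68 times the mean, and beyond the end of Cdkn2c, at 7.34 times. Around the first starts the untreated means are below 1. After DMSO they are 1.45 times at Cdkn2a, 0.384 at Cdkn2b and 2.03 at Cdkn2c.

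The DMSO libraries showed more H3K27me3 at these genes, relative to the library mean, than the untreated ones. At the ARF start DMSO gave 1.77 and 1.13 times, and at the first start of Cdkn2c 2.50 and 1.56 times. At Cdkn1a it was 0.458 and 0.401, at Cdkn2b 0.366 and 0.401, and at Cdkn1b 1.04 and 0.472 times. Around the second starts DMSO gave 2.32 and 1.63 times at INK4A, so both DMSO libraries lay above their mean there. It gave 3.27 and 3.12 times at Cdkn2c and 0.885 and 0.661 times at Cdkn1a. Both DMSO libraries lay above both untreated libraries at the first starts of 4 of 5 genes, Cdkn1b being the exception. This also held for 54.0% of 14585 genes, so it is not particular to the inhibitor genes. The body of Cdkn1a went from 0.0941 and 0.0937 to 0.757 and 0.666 times. Solvent and the quantitative protocol came together in the DMSO libraries, so their parts cannot be told apart.

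Cdkn1a had the highest mean H3K36me2 and H3K36me3 of the 5 genes at the start and over the body, though not over the flanks, and its body overlapped that of Cdkn2a in H3K36me2. H3K36me3 over its body was 7.42 and 8.68 times the library mean, higher than in 95.1% of genes and in the range of the pluripotency genes. H3K36me3 was above the library mean before the gene too, at 2.25 and 2.42 times over the 10 kb upstream. It was 2.37 and 2.56 times around the first start and 3.42 and 4.74 times around the second. It reached 14.5 and 17.2 times in the window centred 8.52 kb from the first start. H3K36me2 ran the other way in untreated cells. It was 3.74 and 2.63 times around the first start and 4.11 and 3.22 times over the 10 kb upstream. In that same window near the 3′ end it was 0.820 and 0.713 times, but 0.999 and 2.08 times in the DMSO libraries. A peak of H3K36me2 49.5 kb long, at chr17:29047501-29097000, covered the upstream sequence and 6.02 kb of the gene. H3K27me3 over the body was 0.0941 and 0.0937 times the mean, with 14 and 9 window reads. Between 29102001 and 29109000 on chromosome 17, downstream of the gene, 7 windows held almost no reads in any of the 18 libraries, so the flank of Cdkn1a is averaged over sequence in which reads were hardly counted. The upstream flank of Cdkn2b holds 4 such windows, between 89317001 and 89321000 on chromosome 4, and its flank values carry the same limit.

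Cdkn1b had a similar arrangement up to its 3′ end, on a smaller scale. Its body carried 2.84 and 2.42 times the library mean of H3K36me3, above 62.4% of genes. H3K36me2 was 1.57 and 1.09 times around the start, 2.55 and 2.18 times over the upstream 10 kb and 0.784 times in both libraries over the body. Over the downstream 10 kb H3K36me2 was 2.13 and 1.62 times for Cdkn1b and 0.474 and 0.409 times for Cdkn1a. Most of that Cdkn1a sequence held almost no reads in any library, so the genes cannot be compared there. Past this gap, H3K36me2 was 1.91 and 1.36 times at 18.52 kb from the first start of Cdkn1a. At 19.52 kb it was 2.93 and 2.27 times. H3K27me3 at Cdkn1b was 1.21 and 1.02 times upstream but 0.231 and 0.183 times downstream, toward the lncRNA gene Lockd. In both CIP/KIP genes H3K36me2 was thus higher before the gene than over its body, and H3K36me3 was above the library mean inside it, as the profile of H3K36 methylation shows. Neither was particular to them. Mean H3K36me2 at Cdkn2c was 1.33 times upstream and 0.653 times over the body, though Cdkn2a had less upstream than over the body. The upstream 10 kb of Cdkn2b includes windows with almost no reads in any library, so it cannot be compared with its body. The median H3K36me3 over the bodies of all genes was 1.76 times.

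**Figure D2:**
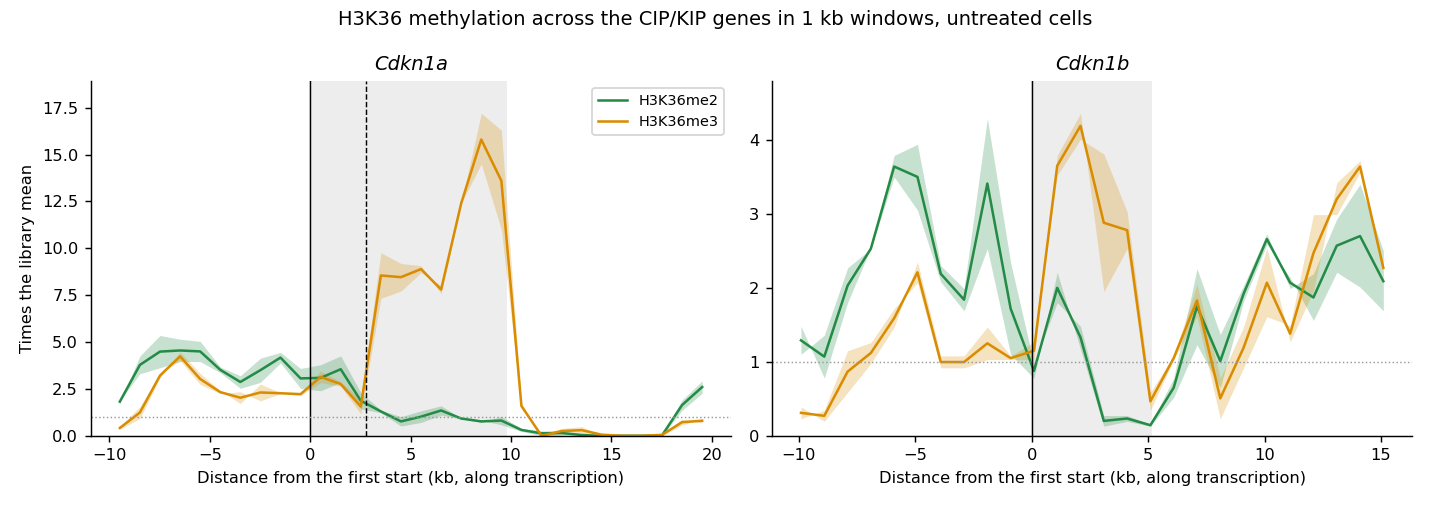
H3K36me2 and H3K36me3 in untreated cells in 1 kb windows (y axis, times the library mean) against distance from the first start along transcription (x axis, kb) at Cdkn1a and Cdkn1b, drawn with separate y axes; lines are means of 2 libraries, shading spans the 2 libraries, grey marks the gene body and the dashed line the second start. H3K36me3 climbs after the second start of Cdkn1a to 15.8 times the mean, where H3K36me2 is 0.767 times.

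The INK4 genes had less H3K36me3. Over bodies Cdkn2a had 2.05 and 2.07, Cdkn2b 1.61 and 1.63, and Cdkn2c 0.855 and 0.900 times the library mean. The order from Cdkn1a through Cdkn1b, Cdkn2a and Cdkn2b to Cdkn2c spanned 9.17-fold, and no neighbours in it had overlapping libraries. H3K27me3 over bodies ran nearly in reverse, from Cdkn2c (1.05 and 2.16 times) and Cdkn2a (1.22 and 1.28 times) to Cdkn2b (0.251 and 0.244), Cdkn1b (0.228 and 0.0852) and Cdkn1a. Its span was 17.1-fold, with Cdkn2c overlapping Cdkn2a and Cdkn1b overlapping Cdkn1a. The value for Cdkn2a comes from its 3′ end, as described above. Part of the H3K36me3 near Cdkn2a lay between Cdkn2a and Cdkn2b, outside both and over the lncRNA gene Gm12610. There the window centred 2.88 kb upstream of the ARF start held 7.23 and 4.94 times. Gm12610 is annotated at chr4:89295180-89518621 and so also spans the whole of Cdkn2b. H3K36me3 over the body of Cdkn2b therefore cannot be assigned to either gene. The flanks of Cdkn2a and Cdkn2b overlap, so their flank values share windows.

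H3K27me1 and H3K27me2 separated the genes less. H3K27me1 was highest at Cdkn1a, with 2.65 and 1.82 times the library mean over the body and 1.88 and 1.90 times at the first start. Cdkn1b, Cdkn2a, Cdkn2b and Cdkn2c had mean values between 0.589 and 0.955 over bodies, and all neighbours among them had overlapping libraries. H3K27me2 over bodies ranged only from 0.628 at Cdkn1b to 1.08 at Cdkn2b as a mean, a span of 1.72-fold. In the authors' peak lists all 5 first starts lay in H3K36me2 peaks, which hold 50.0% of all starts. The first starts of Cdkn1a and Cdkn2c lay in H3K27me1 peaks (25.6% of all starts), and none lay in an H3K27me2 peak (30.3%).

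**Figure D3:**
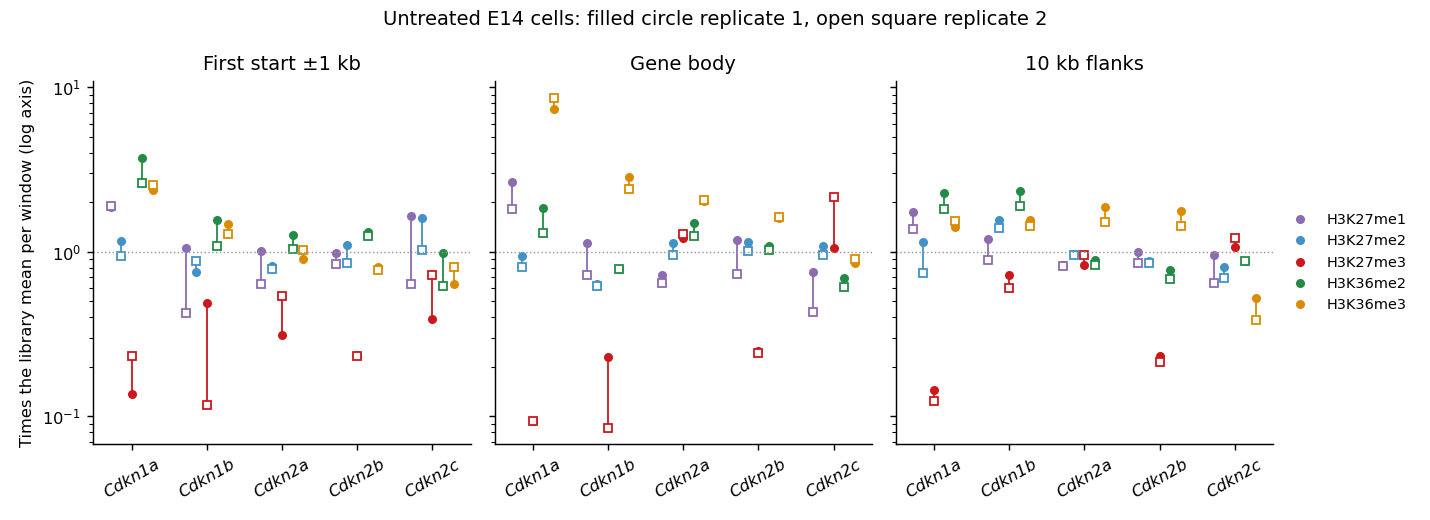
Levels of 5 marks in untreated cells (y axis, times the library mean, log axis) at the first start, body and flanks of the 5 genes (x axis); the filled circle is replicate 1 and the open square replicate 2, joined by a line. H3K36me3 over the body falls from 8.05 times the mean at Cdkn1a to 0.878 at Cdkn2c, while H3K27me3 over the body is lowest at Cdkn1a, at 0.0939.

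Genes with the most similar profile were named by Euclidean distance over 20 values, the log2 levels at start and body in the 10 untreated libraries, among 17247 genes. They were Rnaseh2a (distance 1.38) and Tmem248 for Cdkn1a, Six4 (1.70) and Zbtb41 for Cdkn1b, 4930579G24Rik (1.52) and Tjp1 for Cdkn2a, Dnajc15 (1.14) and Elf4 for Cdkn2b, and Id4 (2.14) and Ttc8 for Cdkn2c. The median gene lay at a distance between 5.86 and 7.80. Among the 5 themselves the closest pairs were Cdkn1b with Cdkn2b (2.48) and Cdkn2a with Cdkn2c (2.77), and the furthest was Cdkn1a with Cdkn2c (8.03). The closest pair thus joined a CIP/KIP gene with an INK4 gene.

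H3K27me3 fell over all 5 genes after EPZ6438. On the spike-in scale the body of Cdkn2a had 89.1 and 61.3 scaled reads per window after DMSO and 0.136 and 0.0338 after the inhibitor, 887-fold lower. Cdkn2c went from 104 and 82.3 to 0.0605 and 0.0907, which was 1230-fold lower. Both genes had the highest DMSO levels of the 5. After the inhibitor their means of 0.0848 and 0.0756 lay within the range of the other 3 genes, 0.0690 to 0.178.

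The genes with little H3K27me3 fell by less on this scale. Cdkn2b went from 29.1 and 16.2 to 0.0726 and 0.0792, Cdkn1a from 36.8 and 23.8 to 0.242 and 0.114, and Cdkn1b from 14.6 and 10.1 to 0.0660 and 0.0720 scaled reads per window. These were falls of 298-fold, 170-fold and 179-fold, against 534-fold for the mean of all windows. Both inhibitor libraries lay below both DMSO libraries in every gene and interval, and over all genes tested this was so at 99.5% of starts, 99.9% of bodies and, to 3 digits, 100% of flanks. A single body held 1 to 13 window reads per inhibitor library, so the folds are coarse.

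In limma on log2(level + 1), fitted over all protein-coding genes with at least 10 window reads over the 4 libraries with calls made below a Benjamini-Hochberg adjusted p of 0.05, the log2 change over bodies was -6.45 for Cdkn2c (SE 0.24, limma adjusted p 1.47e-08) and -6.11 for Cdkn2a (SE 0.26, limma adjusted p 2.51e-08). It was -4.70 for Cdkn1a, -4.40 for Cdkn2b and -3.62 for Cdkn1b, where the highest limma adjusted p was 6.09e-07. The median over all genes tested was -4.87. All 5 genes were called lower at starts, bodies and flanks, as were 99.4% of starts, 99.9% of bodies and 100% of flanks of all genes tested, to 3 digits, so the calls say nothing particular about the inhibitor genes. Each passed the read minimum through its DMSO libraries. After the inhibitor all 5 bodies lay far below the added 1, so these changes mostly follow the DMSO level and look smaller than they are. Without the added 1, log2 ratios of the means ran from -7.41 at Cdkn1a to -10.27 at Cdkn2c. The SEs and p-values of this fit therefore hardly take in the spread between the inhibitor libraries.

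**Figure D4:**
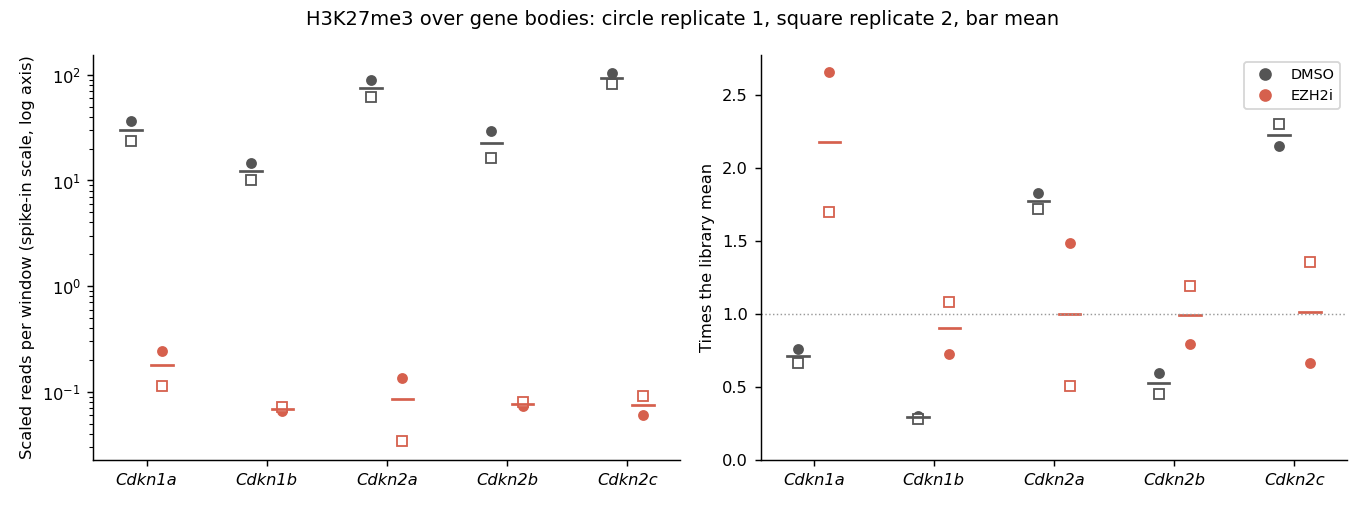
H3K27me3 over the bodies of the 5 genes (x axis) after DMSO or the inhibitor (EZH2i), on the left as scaled reads per window on the spike-in scale (log axis) and on the right as times the library mean; circles are replicate 1, squares replicate 2 and bars their means. On the left the inhibitor libraries lie between 0.0338 and 0.242 and the DMSO libraries between 10.1 and 104; on the right the inhibitor means of Cdkn1b, Cdkn2a, Cdkn2b and Cdkn2c lie near 1.

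Around the first starts the remaining reads were too few to rank the genes. Cdkn2a went from 86.2 and 40.4 scaled reads per window after DMSO to 0.121 and 0.198 after the inhibitor, with 35 and 24 window reads against 1 and 4. At Cdkn2c the DMSO libraries had 32 and 26 window reads, and both inhibitor libraries had 0, though replicate 1 had 1 when overlapping windows were counted. Around the second start of Cdkn2c 51 and 70 window reads after DMSO became 1 and 6 after the inhibitor. The level there was 3.27 and 3.12 times the library mean after DMSO and 1.99 and 4.08 times after the inhibitor. The log2 changes at starts ranged from -3.94 at Cdkn2b to -6.34 at Cdkn2c, with a median of -5.34 over all genes tested. Over the flanks they ranged from -3.79 at Cdkn1a to -5.83 at Cdkn2c, with a median of -5.12 over all genes.

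Relative to the library mean the bodies of the 5 genes lay closer together after the inhibitor. The body of Cdkn2a went from 1.83 and 1.72 times the mean after DMSO to 1.49 and 0.506 times, and Cdkn2c from 2.15 and 2.30 to 0.664 and 1.36 times. Cdkn1a moved the other way, from 0.757 and 0.666 to 2.66 and 1.70 times, as did Cdkn1b, from 0.300 and 0.283 to 0.724 and 1.08, and Cdkn2b, from 0.598 and 0.453 to 0.797 and 1.19. The arms did not overlap in any of the 5. Cdkn2a and Cdkn2c were among the 29.1% of bodies with both inhibitor libraries lower, and the other 3 genes among the 50.4% with both higher. The starts did not draw together: their DMSO means ran from 0.384 at Cdkn2b to 2.03 at Cdkn2c, and their inhibitor means from 0.332 at Cdkn2c to 2.81 at Cdkn1b, on few reads.

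H3K27me3 in the peaks at the 3′ ends of Cdkn2a and Cdkn2c was lower relative to the library mean after the inhibitor. In the Cdkn2a peak 317 and 345 window reads after DMSO became 3 and 6 after the inhibitor, and its level went from 4.44 and 3.62 to 0.885 and 1.07 times the library mean. Its share of all window reads after the inhibitor was 0.243 of that after DMSO (exact 95% interval 0.111 to 0.464, for counting error only). In the Cdkn2c peak 210 and 291 window reads with DMSO became 0 and 9 with the inhibitor, a share ratio of 0.321 (0.146 to 0.614). Its level went from 4.19 and 4.32 to 0 and 2.05 times the library mean, so all of its remaining reads came from replicate 2, which stayed above its mean. After the inhibitor the libraries lay on either side of their genome mean in both peaks. Over whole bodies the share ratio was 0.451 (0.266 to 0.718) for Cdkn2a. For Cdkn2c it was 0.506 (0.201 to 1.06), an interval that includes 1. Both peaks are sites of high untreated H3K27me3, and whether other such peaks fell likewise was not tested.

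The size and sign of these changes rest on the deposited scale. With library totals in place of it, limma called 0 of 5 genes at starts, where it called 0 of all 14137 starts tested. It called 1 of 5 over bodies and over flanks, where Cdkn1a was called higher. Among all genes tested it called 28.0% of bodies and 17.3% of flanks higher. Over bodies of all genes it called 5567 higher and 2367 lower. With library totals set to the DMSO mean, an alternative chosen after the data were seen, Cdkn1a and Cdkn1b were called higher over bodies (log2 change 1.55 and 1.53, limma adjusted p 0.0254 and 0.0212), and Cdkn1a over flanks. Of all genes tested, that fit called 4.05% of starts, 36.3% of bodies and 20.1% of flanks higher.

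H3K36me2 showed no detectable change at any of the 5 genes. Over the body of Cdkn1a it was 608 and 458 scaled reads per window after DMSO and 665 and 477 after the inhibitor, and over that of Cdkn2a 402 and 242 against 425 and 252. Cdkn2b had 379 and 206 against 363 and 228. Cdkn1b (190 and 148 against 248 and 183) and Cdkn2c (208 and 105 against 246 and 149) had higher means after the inhibitor, with overlapping arms. The arms overlapped in every gene and interval. Among all genes tested the arms were fully apart, with the inhibitor higher, at 7.19% of starts, 7.50% of bodies and 5.38% of flanks, and with it lower at 1.60%, 0.762% and 0.141%. Replicate 1 lay above replicate 2 over the bodies of all 5 genes in both arms.

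By limma the log2 changes over bodies ranged from 0.04 at Cdkn2b to 0.37 at Cdkn2c, each with an SE of 0.51. They ranged from -0.19 to 0.04 at starts and from -0.12 to 0.15 over flanks. None of the 5 genes was called in any interval, 0 had an unadjusted p under 0.05, and limma-voom on the recovered reads called 0 as well. Of all genes tested, limma called 0.335% of starts and 0.307% of bodies higher and 0.0120% and 0.0144% lower, and 0 flanks (169 at an unadjusted p under 0.05). With SEs this large relative to the changes, differences within the spread of the spike-in scale were not detectable.

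Within libraries, where the scale has no effect, small shifts were seen. H3K36me2 around the first start of Cdkn1a was 3.31 and 2.89 times the library mean after DMSO and 2.56 and 2.17 after the inhibitor, with no overlap, and 40.2% of starts were likewise lower in both inhibitor libraries. Over the flanks of Cdkn1a, Cdkn1b, Cdkn2a and Cdkn2b both inhibitor libraries were lower too, as for 45.3% of all flanks. The body of Cdkn2a went from 1.24 and 1.13 to 1.05 and 1.11 times, and 36.8% of bodies were likewise lower in both inhibitor libraries. In the Cdkn2a peak at the 3′ end H3K36me2 was 1.54 and 1.58 times after DMSO and 1.36 and 1.38 times after the inhibitor. On the spike-in scale the same peak had 497 and 336 scaled reads per window after DMSO and 551 and 312 with the inhibitor, so the arms overlapped and the direction of the means differed between the scales. In the Cdkn2c peak it was 0.730 and 0.537 times after DMSO and 0.752 and 0.740 after the inhibitor.

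**Figure D5:**
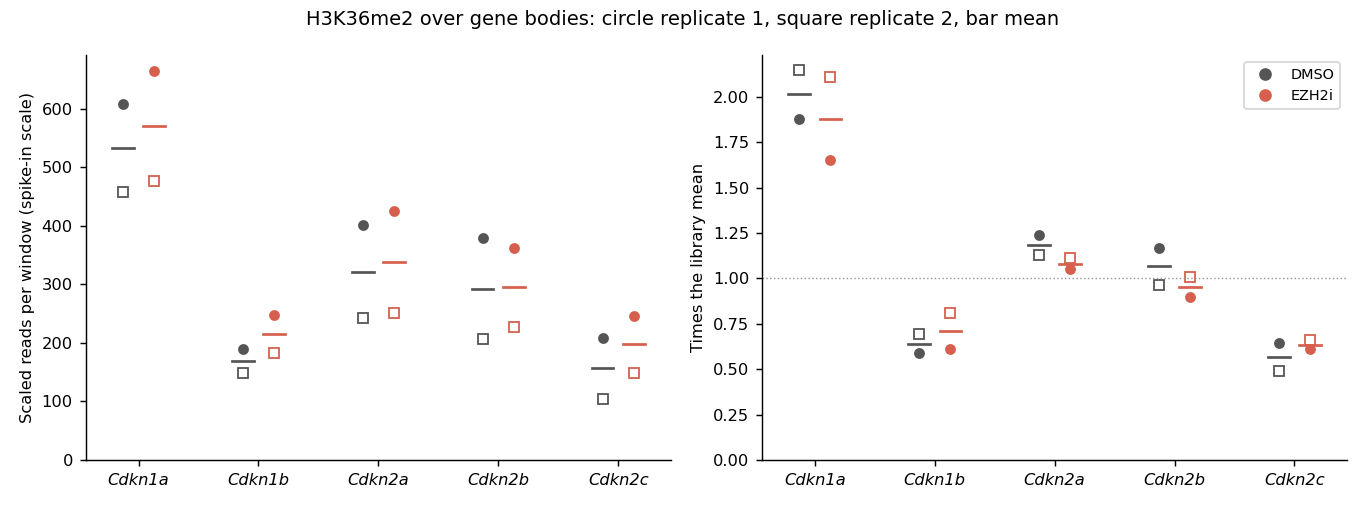
H3K36me2 over the bodies of the 5 genes (x axis) after DMSO or the inhibitor (EZH2i), on the left as scaled reads per window on the spike-in scale and on the right as times the library mean; circles are replicate 1, squares replicate 2 and bars their means. The arms overlap in all 5 genes on the left, where Cdkn1a is highest with means of 533 and 571.

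H3K27me3 also fell at other genes of the cell cycle, as at nearly all genes. Of 28 genes fixed as a list (other CDK inhibitors, cyclins, kinases, pocket proteins, E2F factors, Trp53, Mdm2, Mdm4 and Skp2), H3K27me3 fell in 28 of 28 bodies and flanks and at 16 of 16 starts tested, with a median log2 change of -3.62 over bodies against -4.87 over all genes. With 99.4% of starts, 99.9% of bodies and, to 3 digits, 100% of flanks of all genes called lower, these counts say nothing particular about the list. Changes in log2(level + 1) mostly follow the DMSO level, as at the 5 genes, so the medians over bodies do not rank the losses. H3K36me2 was called in 0 of 28 bodies, 0 of 28 flanks and 0 of 20 starts, where 0.307% of bodies, 0 flanks and 0.335% of starts of all genes were called higher. In untreated cells the median H3K27me3 at the 20 listed starts of these genes was 0.130 times the library mean, against 0.304 for the 5 inhibitor genes and 0.477 for all genes. The highest 3 were E2f6, a repressive E2F factor, with 4.92 and 4.17 times, E2f8, another repressive member, with 4.86 and 3.68 times, and Cdk6, a kinase bound by INK4 proteins, with 1.98 and 1.17 times. All of these lay above the ARF start of Cdkn2a. The imprinted inhibitor gene Cdkn1c has no start in the table used here, and its body carried 18.5 ± 1.38 times the library mean of H3K27me3 (SD, n = 2), a value looked up outside the rule for naming genes.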

How the data were processed

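ChIP-seq of 5 histone marks was deposited for 18 libraries in 9 groups of 2, assigned from the labels alone. The 5 genes and the gene lists were chosen with earlier results of these data known. Named genes were the 5 members, annotated neighbours in their flanks, the 28 list genes by counts (values for the 3 highest in H3K27me3 at the start), and the 2 most similar genes of each member.

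The authors deposited log2 tracks in 1 kb windows every 500 bp. Per the submitters' processing notes Trim Galore 0.4.2, Bowtie2 2.2.6.2, SICER and the builds mm10 and dm3 were used, in no stated role. Values were returned to a linear scale; in every track 100.00% of values were whole multiples of 1 step at a tolerance of 0.02 reads. The step of the quantitative libraries was taken as the authors' spike-in factor, whose derivation is not given in the sources used here. The deposited peak lists, for every mark but H3K36me3, carry the authors' score per peak, which was not used; only positions were. No input was subtracted.

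Windows with at least 500 bp inside an interval were averaged, over 2633787 non-overlapping windows for the library mean. A start is the most 5′ one listed by RefSeq, and 4357 genes without a listed start were used for bodies and flanks only. EZH2i and DMSO libraries were compared per mark and interval with limma 3.58.1 (R 4.3.3), with Benjamini-Hochberg adjustment over all genes tested; a permutation test cannot go below 0.333 here. The limma step was also run on simulated reads with planted increases, scaled by library totals. That setting differs from the spike-in scale and from the falls reported here, so it does not test them. Replicates differed by more than sampling noise in all 9 groups (chi-square per degree of freedom from 2.16 to 19.7), so counting intervals understate the error. Same-numbered libraries were not taken as pairs. Alternatives covered scale, pseudocount, filter, window choice, limma-voom, block and left-out libraries.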

Additional observations from a re-analysis of the deposited data

How the results depend on the processing

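H3K27me3 calls at the 5 genes depended on the scale. With library totals limma called 0 genes at starts, 1 over bodies (Cdkn1a) and 1 over flanks (Cdkn1a), against 5 in each on the spike-in scale. Over all genes it then called 0 of 14137 starts, though 4795 had an unadjusted limma p under 0.05. The log2 changes that turned positive were 0.26 (Cdkn1a), 0.69 (Cdkn1b), 0.21 (Cdkn2a) and 0.42 (Cdkn2b) at starts, 0.52 (Cdkn1a), 0.27 (Cdkn1b) and 0.20 (Cdkn2b) over bodies, and 0.39 (Cdkn1a) and 0.07 (Cdkn2b) over flanks. With library totals at the DMSO mean, chosen after the data were seen, the counts were 0, 2 and 1, and the same changes were 1.17, 1.96, 0.48 and 1.81 at starts, 1.55, 1.53 and 0.87 over bodies, and 1.83 and 0.51 over flanks. The other H3K27me3 changes stayed negative and lost their call. No other alternative or left-out library changed a direction or a call for H3K27me3 at these genes where it gave a value; flanks outside other genes gave none for Cdkn2b and called 4 of the other 4.

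For H3K36me2 none of the 5 genes was called under any alternative that gave a value (flanks outside other genes gave none for Cdkn2b). Signs turned with library totals (-0.05 for Cdkn2a and -0.02 for Cdkn2c at starts; -0.04, -0.04 and -0.05 for Cdkn1a, Cdkn2a and Cdkn2b over bodies; -0.07, -0.05 and -0.01 for Cdkn1b, Cdkn2a and Cdkn2c over flanks). At the DMSO mean the same values were -0.16 and -0.20, then -0.11, -0.13 and -0.16, then -0.16, -0.20 and -0.05. Limma-voom gave -0.02 and -0.08 for Cdkn2a and Cdkn2c at starts and -0.03 for Cdkn2a over flanks, non-overlapping windows -0.02, -0.07 and -0.03, and windows wholly inside -0.03 for Cdkn2c at the start. Leaving out 1 library moved the H3K36me2 change at starts over -0.73 to 0.35 (Cdkn1a), -0.40 to 0.35 (Cdkn1b), -0.52 to 0.60 (Cdkn2a), -0.83 to 0.62 (Cdkn2b) and -0.28 to 0.29 (Cdkn2c). Over bodies the ranges were -0.14 to 0.33 (Cdkn1a), -0.31 to 0.45 (Cdkn2a), -0.40 to 0.48 (Cdkn2b) and -0.12 to 0.87 (Cdkn2c). Over flanks they were -0.49 to 0.40 (Cdkn1a), -0.35 to 0.44 (Cdkn1b), -0.47 to 0.48 (Cdkn2a), -0.58 to 0.35 (Cdkn2b) and -0.29 to 0.59 (Cdkn2c). The cause was not tested.

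With the replicate number as a block, 5 of 5 genes were called for H3K27me3 and 0 of 5 for H3K36me2 in each interval. Over all genes the block called 0 starts, 1885 bodies and 3693 flanks for H3K36me2, against 58, 67 and 0 without it, and limma-voom called 0 in each. Deviations of same-numbered libraries correlated at 0.15 to 0.55 for H3K36me2 and 0.03 to 0.11 for H3K27me3, and with only 2 pairs the numbers were not taken as a pairing. Without DMSO replicate 2 limma called 11 starts and 11 bodies for H3K36me2, without EZH2i replicate 1 it called 45 and 43, without EZH2i replicate 2 96 and 123, and without DMSO replicate 1 94 and 70.

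Of 30 untreated levels with DMSO libraries in their place, 23 moved by more than the SD between the untreated libraries. Of 75, 21 did so with windows wholly inside and 20 with non-overlapping windows. Reads per interval limit H3K27me3 at starts most.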
